A study of Zea mays with 8 samples.

Results

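The response of the maize ovary to drought was read from the 4 ovary libraries of a study of 8 libraries, with 2 libraries from well-watered plants (the controls) and 2 from plants under drought. All plants were of the inbred line B73, grown in a greenhouse. In the drought group irrigation was withheld for 2 to 3 days, the plants were then hand pollinated, and tissue was taken 24 hours after pollination, as in the controls. The series text calls the control tissue ovaries or cob and the drought tissue ovary, and how much cob either held is not known. The ovary table lists 26380 genes, of which the 23770 with a mean of at least 1 FPKM over the 4 libraries were tested (FPKM are fragments per kilobase of gene model, scaled to the size of the library). Of these, 641 had a value of exactly 0 in each library of 1 condition. They were tested with the rest and make up 283 of the rises and 354 of the falls counted below, but none is given a fold. The labels call the libraries biological replicates while the series text counts 1 replicate per condition. Whether separate plants were used is not said, and p-values therefore speak only of the spread among the libraries.

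Under drought most of the listed genes of flavonoid and lignin synthesis, respiration, DNA synthesis, surface lipids and cell walls fell. Most type 2C phosphatase genes rose, as did several enzymes that degrade or store cytokinin. Most genes of a light and clock list, chiefly phytochrome and flowering genes, rose too. Most of these rises were not called in every fit with 1 library left out. The silk flavone gene sm1, for example, stood at 3.43 and 3.74 FPKM under drought against 156 and 231 FPKM. The cytokinin oxidase gene CKX4 stood at 88.7 and 106 FPKM under drought against 5.09 and 7.54 FPKM in the controls. Single members of 1 family also moved in opposite directions, among them sucrose synthases, potassium transporters, cystatins and disease resistance reductases.

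The maize ovary holds an ovule that becomes a kernel after pollination. Its growth after fertilization depends on imported sucrose, cell division and hormone signals, and water deficit at this time is known to abort kernels. Abscisic acid signals water deficit through receptors that inhibit type 2C protein phosphatases and so release SnRK2 kinases. Cytokinin promotes cell division in young kernels and is destroyed by cytokinin oxidases.

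Between the controls the median absolute log2 difference of a tested gene was 0.22, between the drought libraries 0.19 and between the means of the conditions 0.66, on the log2(FPKM + 1) scale used throughout. A difference over 1 on that scale was found in 2.71% of genes between the controls, in 2.02% between the drought libraries and in 34.0% between conditions. The conditions thus differed by more than the replicates did. At an adjusted p under 0.05 (limma, Benjamini-Hochberg over all tested genes), 5614 genes rose under drought, which is 23.6% of those tested, and 7004 fell, which is 29.5%. Together 53.1% of the tested genes were called, and in 80.0% the 2 drought libraries lay both above or both below the 2 controls. Counts in the gene groups below are to be read against these shares. The median log2 change over all tested genes was -0.045. With control 1, control 2, drought 1 or drought 2 left out, 3791, 2692, 3016 or 2257 genes rose and 4804, 4473, 4048 or 3543 fell, and 1787 rising and 3081 falling genes were called in each of these 4 fits and are referred to below as kept. In such a fit the lone library of a condition is assumed to vary like the other condition. Kept counts in the gene groups are to be read against the kept counts among all tested genes. Each gene named below as rising or falling was kept, unless the highest adjusted p with a library left out is given beside it. Values after ± are standard errors of the fit, with 2 libraries per condition.

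The falls were larger than the rises. Among called genes above 0 in all 4 libraries the median log2 change was -1.25 for the 6646 that fell and 1.08 for the 5316 that rose. A log2 change past 3 was reached by 473 falling and 282 rising genes, and one past 5 by 55 and 20. Abundant genes were called more often. With means of 100 to 100000 FPKM, which leaves out 2 genes above that, 42.2% of 1164 genes fell and 31.5% rose, against 31.3% and 17.5% of 6236 genes at 1 to 5 FPKM. In bulk tissue a lower level can mean fewer cells of a type or less RNA per cell, and these cannot be told apart.

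**Figure D1:**
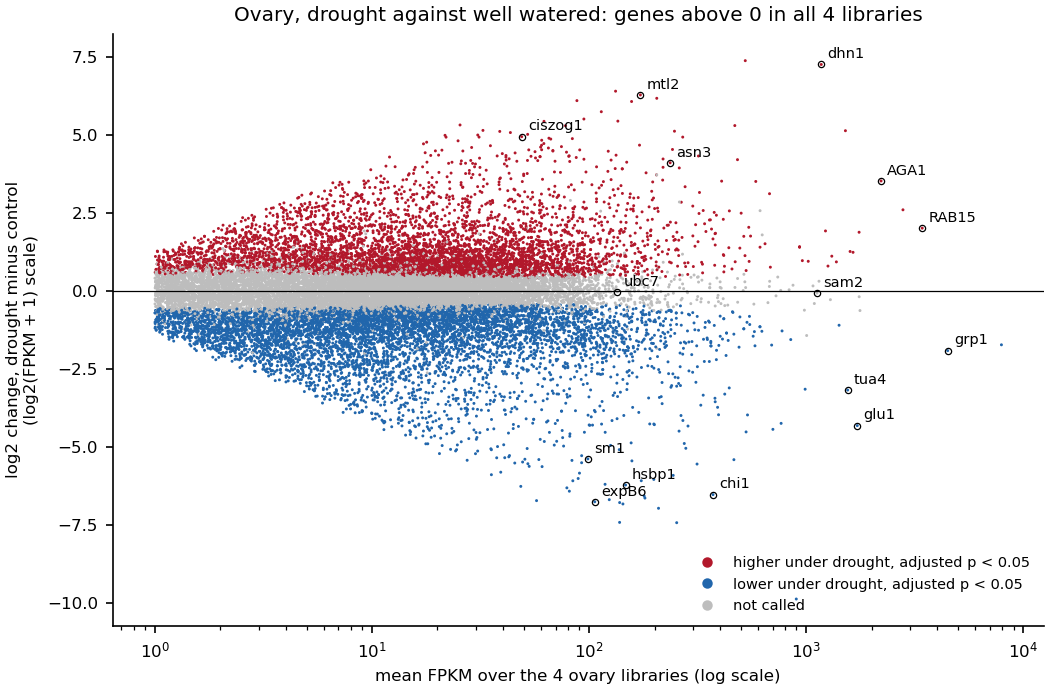
Log2 change (drought minus control, log2(FPKM + 1) scale) against mean FPKM over the 4 ovary libraries on a log scale, for tested genes above 0 in all 4 libraries and under 100000 FPKM. Each point is a gene, red where it rose, blue where it fell and grey where it was not called, and the blue cloud reaches farther from 0 than the red one.

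Quantile normalization moved the median of all genes up by 0.11 on the log2 scale and turned the balance of calls, to 6657 rising and 6206 falling genes, so that 51.8% of calls were rises against 44.5%. Library sums lay between 661161 and 733453 FPKM once 2 genes above 100000 FPKM in control 2 were set aside. Both genes stayed in the quantile step. Depth cannot be read from FPKM, so counting error is unknown. How reads shared by near-identical gene copies were assigned is not stated in the sources at hand, and values of closely related family members are uncertain.

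The gene groups were lists matched on gene names. The plot of calls per list shows how far each stood from the background.

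**Figure D2:**
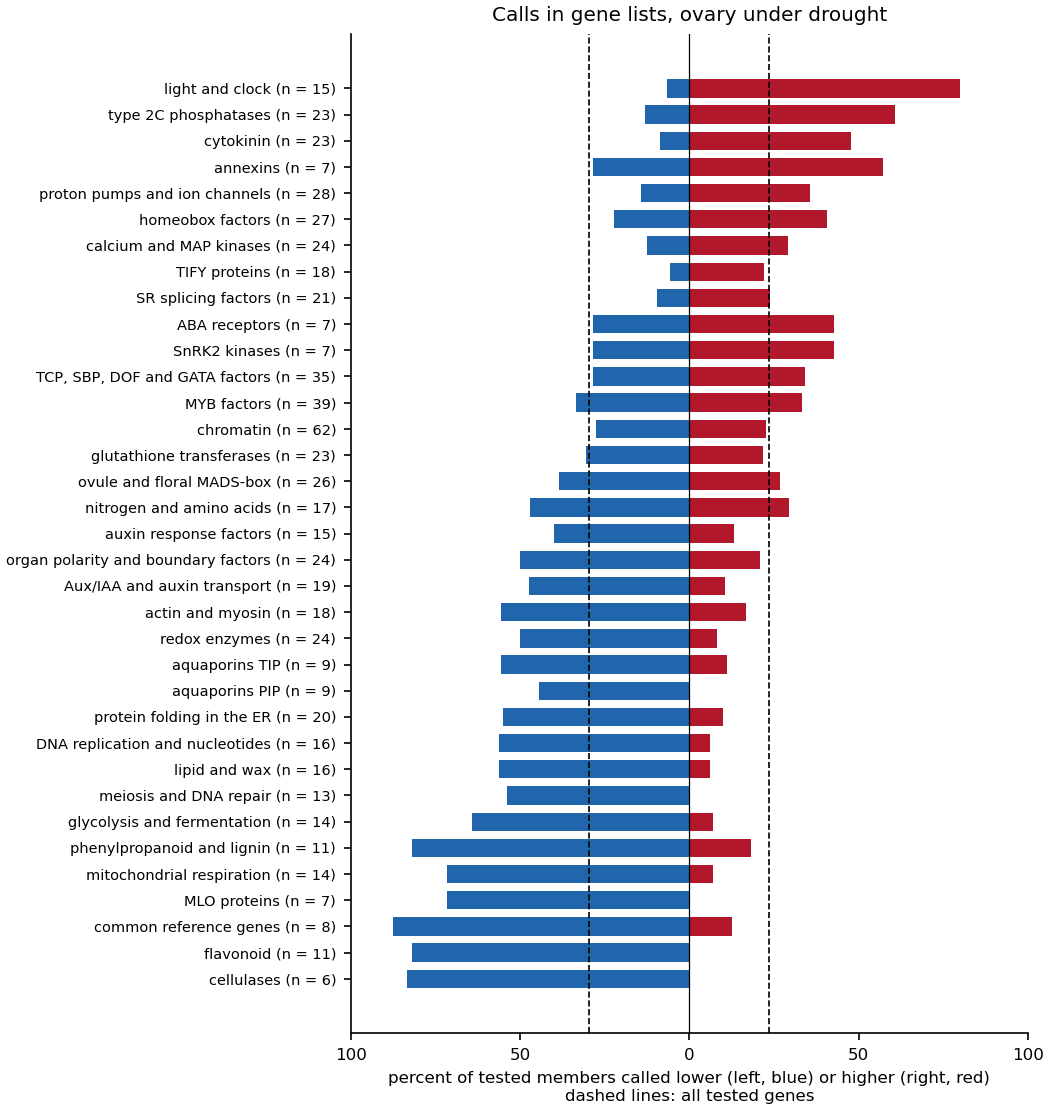
Percent of the tested members of 35 gene lists that were called lower (blue, to the left) or higher (red, to the right) under drought, with the number tested in brackets. Dashed lines mark the 29.5% and 23.6% of all tested genes called lower and higher, and the light and clock list at the top has the largest surplus of rises.

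The tissue markers were read first. MADS-box genes that set floral organ identity were each above 0 in all 4 libraries, and their summed level was 3107 and 2861 FPKM in the controls and 2976 and 3195 FPKM under drought. The ovule gene zag2, listed as mpik32a (GRMZM2G160687), stood at 216 and 168 FPKM when watered and 119.9 and 134 FPKM under drought, and the carpel gene zag1, listed as MADS37 (GRMZM2G052890), at 96.3 and 83.1 FPKM when watered and 49.9 and 63.02 FPKM under drought. Both defining genes were thus present in each library. Both fell, by -0.58 ± 0.19 and -0.66 ± 0.18 on the log2 scale, but neither was kept (limma adjusted p up to 0.213 for mpik32a and 0.141 for MADS37), and mpik32a was not called under quantile normalization. Of the 26 genes, 7 rose and 10 fell, of which 3 and 5 were kept (median log2 change -0.34).

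Members of the MADS-box family moved in opposite directions. The B-class genes related to PISTILLATA, which with a second B-class protein specify stamens and lodicules, all fell. The gene m18 (GRMZM5G805387) stood at 151 and 157 FPKM when watered and 25.1 and 29.4 FPKM under drought (-2.46 ± 0.15 in log2, limma adjusted p = 0.000169). Its close relative m29 (GRMZM2G152862) stood at 47.9 and 56.4 FPKM when watered and 8.17 and 9.99 FPKM under drought (-2.40 ± 0.18 in log2), and m16 (GRMZM2G110153) at 49.02 and 40.8 FPKM when watered and 17.7 and 16.1 FPKM under drought (-1.36 ± 0.17 in log2). In these 3 genes each drought library lay far below both controls. The other B-class gene, si1 (GRMZM2G139073), the maize APETALA3, was not called and its conditions overlapped, at 15.8 and 12.2 FPKM when watered and 7.8 and 13.2 FPKM under drought. Both kept genes of the APETALA1 group moved the other way. The gene zap1 (GRMZM2G148693) stood at 40.99 and 43.1 FPKM when watered and 93.8 and 87.1 FPKM under drought (1.09 ± 0.14 in log2, limma adjusted p = 0.00185), and zmm28, listed as m28 (GRMZM2G147716), at 151 and 171 FPKM when watered and 383 and 328 FPKM under drought (1.13 ± 0.17 in log2, limma adjusted p = 0.00316). Of all MADS-box genes in the list, MADS4 (GRMZM2G097059) gained most FPKM, from 358 and 311 to 953 and 958 FPKM (1.51 ± 0.18 in log2, limma adjusted p = 0.00132). The tunicate gene m19 (GRMZM2G370777) was low and not called, at 4.25 and 3.34 FPKM when watered and 3.66 and 4.7 FPKM under drought.

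Markers of other tissues were low or mixed. Of the 7 embryo sac and early endosperm genes, none rose and 2 fell, none of them kept, and their summed level was 67.6 and 52.2 FPKM in the controls and 46.8 and 47.7 under drought. In the pollen and anther list 2 of 4 genes fell (1 kept) and none rose, and it summed to 918 and 959.7 FPKM in the controls and 412 and 475 FPKM under drought, nearly all of it from PRO4 (GRMZM2G108780), a profilin, and ABP3 (GRMZM2G060702), an actin depolymerizing factor, which are not confined to pollen. Its other tested members ocl4 and mgs1 were under 10 FPKM in each library. The endosperm storage list, with 1 rise and 3 falls among 5 genes, summed to 309 and 280.3 FPKM and 788 and 971 FPKM, mostly from sucrose synthase sh1 (GRMZM2G089713). The falls were in starch synthesis genes, and 1 was kept, that of the branching enzyme gene ae1 (GRMZM2G032628), which stood at 13.2 and 9.99 FPKM when watered and 2.23 and 2.32 FPKM under drought (-1.93 ± 0.21 in log2, limma adjusted p = 0.000889). The ADP-glucose pyrophosphorylase subunit gene bt2 (GRMZM2G068506) stood at 17.6 and 16.4 FPKM when watered and 6.13 and 4.24 FPKM under drought (-1.56 ± 0.21 in log2, limma adjusted p up to 0.0512 without control 1 or control 2), and the debranching enzyme gene zpu1 (GRMZM2G158043) at 4.4 and 2.89 FPKM when watered and 0.961 and 0.193 FPKM under drought (-1.58 ± 0.31 in log2, limma adjusted p up to 0.0924 without control 1, control 2 or drought 2).

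Markers of green tissue mostly fell. Of 10 genes of light harvesting and carbon fixation, 8 fell and none rose (median log2 change -2.19, or -2.03 without genes at 0), with 4 kept. They summed to 604 and 1072 FPKM in the controls and to 150.4 and 139 FPKM under drought, so control 2 stood above control 1 and both well above drought. The light-harvesting gene lhcb3 was listed at 0 in both drought libraries, and the others were above 0 in each library. The part of green tissue in the falls described below was not tested.

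The most abundant named transcripts changed places. In the controls the first was grp1 (GRMZM2G080603), named for a glycine-rich protein, at 6145 and 8022 FPKM, against 1826 and 1905 FPKM under drought (-1.91 ± 0.28 in log2, limma adjusted p = 0.00276, and up to 0.111 with any 1 library left out). Under drought the first was RAB15 (GRMZM2G165901), at 4619 and 6364 FPKM against 1361 and 1322 FPKM in the controls. Its rise was not called without control 1 or control 2 (2.01 ± 0.27 in log2, limma adjusted p = 0.00211, and up to 0.12 without either), and its log2 change was 4.70 under quantile normalization. The second was AGA1 (GRMZM2G340656), an alkaline alpha-galactosidase gene, at 3213 and 4910.3 FPKM against 272 and 435 FPKM (3.53 ± 0.33 in log2, limma adjusted p = 0.000602). Enzymes of that kind release galactose from raffinose sugars. The dehydrin gene dhn1 was the third. The translation factor gene tif1 (GRMZM5G835323) rose from 469 and 546 to 1679 and 2205 FPKM (1.92 ± 0.23 in log2, limma adjusted p = 0.00135, and limma adjusted p up to 0.0546 without control 1 or control 2). The cell wall glycoprotein gene HRGP (GRMZM2G168651) was in the first 10 of both conditions and was not called, at 1475 and 2286 FPKM when watered and 1504 and 1736 FPKM under drought.

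Genes of surface lipids were among the 10 largest falls in FPKM. The lipid transfer protein gene LTP3 (GRMZM2G126397) stood at 1343 and 1562 FPKM when watered and 95.5 and 59.8 FPKM under drought (-4.24 ± 0.26 in log2, limma adjusted p = 0.000162). The related gene plt2 (GRMZM2G010868) stood at 595 and 1436 FPKM when watered and 43.01 and 36.2 FPKM under drought (-4.52 ± 0.41 in log2, limma adjusted p = 0.000521), with control 2 well above control 1. Each was lower in both drought libraries than in either control. The abundance of aba1 (GRMZM2G136910), a gene of the ASR family named for abscisic acid, stress and ripening, was 857 and 1302 FPKM in the controls and 632 and 298 FPKM under drought, a fall that was not kept (limma adjusted p = 0.041, and up to 0.297 with any 1 library left out) and not called under quantile normalization.

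Flavonoid synthesis had the lowest median of all lists. Of 11 genes tested, 9 fell and none rose, all 9 of them kept, with a median log2 change of -5.51, or -4.45 without the 4 genes listed at 0. The list summed to 2215 and 3801 FPKM in the controls and to 41.7 and 58.4 FPKM under drought. It runs along the pathway to anthocyanins and to the C-glycosyl flavones that defend silks against insects. At the entry step, the chalcone synthase genes c2 and whp1 (GRMZM2G151227) were both listed at 0 in both drought libraries, whp1 against 33.1 and 59.8 FPKM in the controls. At the last step to anthocyanins, the glucosyltransferase gene bronze1 (GRMZM2G165390) stood at 38.98 and 75.7 FPKM when watered and 1.2 and 1.91 FPKM under drought (-4.45 ± 0.34 in log2, limma adjusted p = 0.000315). The flavone branch fell as well: the rhamnosyltransferase gene sm2 (GRMZM2G180283) was listed at 0 in both drought libraries, and sm1 (GRMZM2G031311), a rhamnose synthase gene, stood at 156 and 231 FPKM when watered and 3.43 and 3.74 FPKM under drought (-5.38 ± 0.22 in log2, limma adjusted p = 5.89e-05). In every one of these genes control 2 was the higher control and the drought libraries lay far below both controls.

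Not every gene tied to the pathway fell. The WD40 gene pac1, a cofactor of the anthocyanin MYB and bHLH proteins, matched 2 IDs. The one listed as GRMZM2G058432 stood at 39.9 and 35.5 FPKM when watered and 18.1 and 16.2 FPKM under drought (-1.09 ± 0.16 in log2, limma adjusted p = 0.00263), while GRMZM2G058292 was not called and its conditions overlapped, at 10.8 and 12.1 FPKM when watered and 8.91 and 13.1 FPKM under drought. The flavanone hydroxylase gene f3h (GRMZM2G062396), which stands between chalcone isomerase and dihydroflavonol reductase in the pathway, was low and not called, at 5.35 and 3.43 FPKM when watered and 2.46 and 9.25 FPKM under drought.

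**Figure D3:**
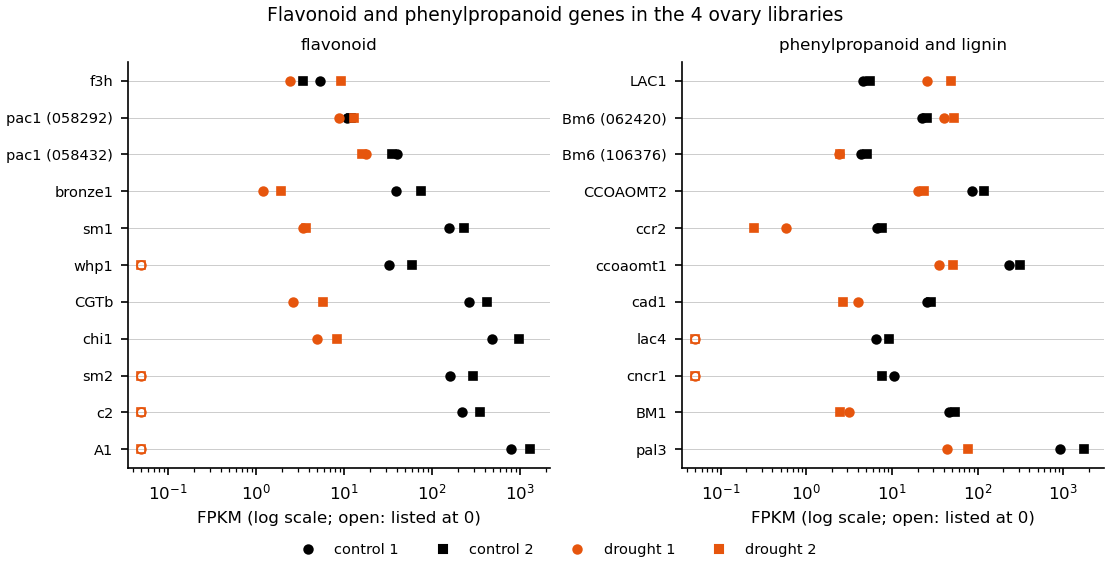
FPKM of the 11 flavonoid and 11 phenylpropanoid and lignin genes in each of the 4 ovary libraries on a log scale, controls in black and drought in orange, replicate 1 as a circle and replicate 2 as a square, with values listed at 0 drawn open at the left edge. For 9 genes of each list the drought symbols lie left of the controls.

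The phenylpropanoid and lignin enzymes fell in 9 of 11 cases and rose in 2 (median log2 change -2.62, or -2.53 without genes at 0), with 8 falls and no rise kept. Both caffeoyl-CoA methyltransferase genes, of monolignol synthesis, fell. The gene ccoaomt1 (GRMZM2G127948) stood at 235 and 309 FPKM when watered and 35.4 and 51.97 FPKM under drought (-2.62 ± 0.24 in log2, limma adjusted p = 0.000556) and CCOAOMT2 (GRMZM2G099363) at 86.2 and 118 FPKM when watered and 20.02 and 23.9 FPKM under drought (-2.15 ± 0.20 in log2). The cinnamoyl-CoA reductase gene cncr1 (GRMZM2G131205) was listed at 0 in both drought libraries and stood at 10.4 and 7.72 FPKM in the controls. The alcohol dehydrogenase gene cad1 (GRMZM2G046070) fell from 25.3 and 28.2 to 4.02 and 2.69 FPKM (-2.69 ± 0.21 in log2). Laccases, which polymerize lignin precursors, split: lac4 was listed at 0 under drought while LAC1 (GRMZM5G842071) stood at 4.55 and 5.49 FPKM when watered and 25.5 and 49.2 FPKM under drought (2.60 ± 0.32 in log2, limma adjusted p up to 0.0546 without control 1 or control 2).

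MYB factors, many of which control these pathways, were called in both directions, 13 rising and 13 falling of 39 (median log2 change 0.17). Of these 9 falls and 3 rises were kept. The gene MYB64 (GRMZM2G124715) fell from 18.5 and 26.7 to 0.257 and 0.28 FPKM (-4.2 ± 0.23 in log2, limma adjusted p = 0.00012). Near it in size were Myb20 (GRMZM2G150841) (-3.99 ± 0.20 in log2) and MYB109 (GRMZM2G052606) (-3.94 ± 0.21). The lignin repressor gene myb31, listed as GRMZM2G050305, stood at 16.4 and 22.8 FPKM when watered and 4.34 and 4.98 FPKM under drought (-1.85 ± 0.22 in log2). The gene myb42 (GRMZM2G419239) moved the other way, from 1.56 and 1.44 to 6.39 and 11.98 FPKM (1.97 ± 0.30 in log2), a rise that was not kept. Of the rises, MYB112 (GRMZM5G803308) stood at 20.4 and 18.99 FPKM when watered and 86.7 and 87.9 FPKM under drought (2.09 ± 0.14 in log2, limma adjusted p = 0.000221). The gene MYB134 (GRMZM2G001824) rose from 0.552 and 0 FPKM in the controls to 10.3 and 6.98 FPKM under drought.

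Benzoxazinoids, the stored defence glucosides of maize, showed a split along their pathway. The second step gene bx2 (GRMZM2G085661) rose from 4.74 and 3.18 to 28.8 and 29.8 FPKM (2.63 ± 0.21 in log2, limma adjusted p = 0.000351). The 3 following P450 genes fell: BX3 (GRMZM2G167549) stood at 86.7 and 96.1 FPKM when watered and 40.5 and 33.4 FPKM under drought (-1.29 ± 0.16 in log2), BX4 (GRMZM2G172491) at 28.2 and 29.6 FPKM when watered and 7.25 and 4.25 FPKM under drought (-2.18 ± 0.25) and BX5 (GRMZM2G063756) at 74.6 and 73.3 FPKM when watered and 31.7 and 25.8 FPKM under drought (-1.34 ± 0.16). The glucosyltransferase genes bx8 and bx9 were not called. The beta-glucosidase gene glu1 (GRMZM2G016890), whose product frees the toxic form, stood at 2364 and 4176 FPKM when watered and 125 and 197 FPKM under drought (-4.31 ± 0.36 in log2, limma adjusted p = 0.00039), and glu2 (GRMZM2G008247) at 37.8 and 68.8 FPKM when watered and 2.87 and 4.66 FPKM under drought (-3.48 ± 0.34 in log2). In the list of 9 genes, 1 rose and 5 fell, all of them kept (median log2 change -1.29).

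Of 8 further pathogen defence genes, 2 rose and 2 fell (median log2 change 0.35, or 0.59 without the gene at 0), 1 and 2 of them kept. The 2 HC-toxin reductase genes, which detoxify a product of a fungal leaf pathogen, moved apart. The gene hm1 (GRMZM5G881887) rose from 11.1 and 11.8 to 61.1 and 67.9 FPKM (2.39 ± 0.15 in log2, limma adjusted p = 0.000177), while Hm2 (GRMZM2G131243) fell from 31.3 and 61.9 to 0.944 and 1.04 FPKM (-4.50 ± 0.33 in log2, limma adjusted p = 0.00028). The pathogenesis-related gene prp2 (GRMZM2G102356) stood at 477 and 545 FPKM when watered and 35.8 and 21.5 FPKM under drought (-4.15 ± 0.26 in log2, limma adjusted p = 0.000168). Of 7 genes of the MLO family, membrane proteins known from mildew susceptibility in barley, 5 fell and none rose (median log2 change -1.95), with 4 kept. The gene mlo5 (GRMZM2G471142) fell from 19.2 and 21.8 to 2.51 and 1.74 FPKM (-2.79 ± 0.21 in log2) and mlo9 (GRMZM2G051974) from 31.6 and 36.7 to 5.91 and 3.92 FPKM (-2.59 ± 0.22). Among cystatins, inhibitors of cysteine proteases, cc10 (GRMZM2G030717) rose from 3.06 and 2.93 to 112 and 63.7 FPKM (4.42 ± 0.28 in log2, limma adjusted p = 0.000181) and cc7 (GRMZM2G148925) fell from 142 and 194 to 22.4 and 27.4 FPKM (-2.69 ± 0.21 in log2, limma adjusted p = 0.000321). The senescence-associated protease gene see2a (GRMZM2G081626) rose by 1.52 ± 0.18 on the log2 scale while the levels of see2b overlapped between conditions.

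Sucrose handling shifted between isoforms. The sucrose synthase gene sh1 (GRMZM2G089713) stood at 263 and 239 FPKM when watered and 765 and 947 FPKM under drought (1.76 ± 0.19 in log2, limma adjusted p = 0.000978), whereas sus1, listed as ss2 (GRMZM2G152908), stood at 517 and 387 FPKM when watered and 58.7 and 48 FPKM under drought (-3.05 ± 0.21 in log2, limma adjusted p = 0.000219). The ranks of these isoforms thus reversed: ss2 was the higher in both controls and sh1 the higher in both drought libraries. The sucrose transporter gene sut1 (GRMZM2G034302), of phloem loading, stood at 19.4 and 8.59 FPKM when watered and 106 and 129.9 FPKM under drought (3.08 ± 0.36 in log2, limma adjusted p up to 0.0565 without drought 2), while sut2 and sut4 were not called. Among invertases, which split sucrose, the vacuolar gene IVR1 (GRMZM2G394450) fell from 7.42 and 6.13 to 0.349 and 1.18 FPKM (-2.18 ± 0.28 in log2, limma adjusted p = 0.0017). The more abundant ivr2 (GRMZM2G089836) stood at 351 and 602 FPKM when watered and 232 and 179 FPKM under drought, a fall that was not kept (limma adjusted p = 0.02, and up to 0.19 without control 2, drought 1 or drought 2). Of the cell wall invertase genes, incw1 was under 13 FPKM throughout and its conditions overlapped, and mn1 (GRMZM2G119689), or Incw2, was lower still. It stood at 3.48 and 1.93 FPKM when watered and 0.235 and 0.164 FPKM under drought (-1.59 ± 0.25 in log2, limma adjusted p = 0.00365, and limma adjusted p up to 0.0663 without drought 1 or drought 2).

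Most genes of glycolysis and respiration fell. Of 14 glycolytic and fermentation genes, 9 fell and 1 rose (median log2 change -1.37), 7 and none of these kept. The cytosolic glyceraldehyde-3-phosphate dehydrogenases differed in size of change. The gene gpc4 (GRMZM2G176307) fell from 91.5 and 90.3 to 3.66 and 3.42 FPKM (-4.34 ± 0.15 in log2, limma adjusted p = 4.69e-05) and gpc3 (GRMZM2G071630) from 199 and 126 to 10.7 and 9.66 FPKM (-3.84 ± 0.24 in log2). The abundant GAPC1 (GRMZM2G046804) fell from 836 and 829.7 to 320.0 and 289 FPKM (-1.45 ± 0.17). Of the enolase genes eno1 (GRMZM2G064302) fell from 315 and 275 to 60.1 and 46.6 FPKM (-2.45 ± 0.19 in log2, limma adjusted p = 0.000303) while eno2 (GRMZM2G048371), at 556 and 353 FPKM when watered and 355 and 392 FPKM under drought, was not called. Aldolase ald1 (GRMZM2G057823) stood at 343 and 422 FPKM when watered and 69.7 and 87.3 FPKM under drought (-2.27 ± 0.19 in log2). Of 14 respiration genes, 10 fell and 1 rose (median -1.14), with 7 falls and no rise kept. The ADP/ATP carrier genes ANT-G1 (GRMZM5G837108) and ANT-G2 (GRMZM2G135186) had log2 changes of -1.76 ± 0.16 and -1.64 ± 0.14, the first from 566 and 561 to 168 and 162 FPKM.

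Single enzymes of carbon metabolism rose well above both controls. The malate synthase gene mas1 (GRMZM2G102183), of the glyoxylate cycle, stood at 32.8 and 12.6 FPKM when watered and 311 and 519 FPKM under drought (4.23 ± 0.47 in log2, limma adjusted p = 0.000996). The glycolate oxidase gene go1 (GRMZM2G129246) stood at 6.23 and 7.65 FPKM when watered and 69.6 and 113 FPKM under drought (3.51 ± 0.26 in log2, limma adjusted p = 0.000292). The galactinol synthase gene gols2 (GRMZM5G872256), which makes the galactosyl donor for raffinose, stood at 1.21 and 1.48 FPKM when watered and 16.9 and 31.2 FPKM under drought (3.36 ± 0.31 in log2, limma adjusted p = 0.000543). In all 3 the replicates differed by far less than the conditions.

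Related nitrogen genes moved in opposite directions. The asparagine synthetase gene asn3 (GRMZM2G053669) stood at 25.3 and 20.6 FPKM when watered and 267 and 631 FPKM under drought (4.11 ± 0.40 in log2, limma adjusted p = 0.000663), with drought 2 above drought 1, while asn1 (GRMZM2G074589) was not called, at 54.9 and 35.8 FPKM when watered and 35.1 and 29.4 FPKM under drought. The lysine catabolism gene lkrsdh1 (GRMZM2G181362) stood at 76.5 and 40.02 FPKM when watered and 357 and 351 FPKM under drought (2.66 ± 0.31 in log2, limma adjusted p up to 0.0514 without drought 2). The lysine synthesis gene akh2 (GRMZM2G104546), an aspartate kinase with homoserine dehydrogenase, went the other way, from 8.71 and 6.79 to 0.302 and 0.251 FPKM (-2.77 ± 0.20 in log2, limma adjusted p = 0.000274). Of the glutamine synthetases gln3 (GRMZM2G046601) fell from 33.8 and 41.2 to 9 and 7.45 FPKM (-2.06 ± 0.18 in log2, limma adjusted p = 0.000511), and gln2 (GRMZM2G024104) rose from 116 and 134 to 281 and 239 FPKM (1.05 ± 0.17 in log2, limma adjusted p up to 0.0537 without control 1 or drought 1). Of the 17 genes of the list 5 rose and 8 fell (median log2 change -0.45), of which 1 and 5 were kept.

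Sulfur genes leaned upward, 4 rising and 1 falling of 10 (median log2 change 0.85, or 0.71 without the gene at 0), with 3 rises and no fall kept. The glutathione synthesis gene gsh1 (GRMZM2G111579) stood at 31.6 and 27.9 FPKM when watered and 66.7 and 66.7 FPKM under drought (1.14 ± 0.15 in log2, limma adjusted p = 0.00176) and gsh2 (GRMZM2G155974) at 35.2 and 29.9 FPKM when watered and 67.3 and 63.2 FPKM under drought (0.98 ± 0.16 in log2, limma adjusted p up to 0.0556 without drought 1 or drought 2). The serine acetyltransferase genes, which feed cysteine synthesis, did not move together: sat1 (GRMZM2G069203) stood at 1.84 and 1.16 FPKM when watered and 64.5 and 106 FPKM under drought, whereas sat3 (GRMZM5G816110), at 11.9 and 12.5 FPKM when watered and 8.38 and 10.2 FPKM under drought, was not called. The S-adenosylmethionine synthetase gene sam2 (GRMZM2G154397) was among the most abundant and was also not called, at 1044 and 1235 FPKM when watered and 917 and 1282 FPKM under drought.

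Among genes named for the core of abscisic acid signalling the phosphatases mostly rose, while receptors and kinases moved both ways. The phosphatase list takes every gene named PP2C, and which of these act on abscisic acid is not known from the names. Of 7 receptor genes 3 rose and 2 fell (median log2 change 0.54), of 23 type 2C phosphatase genes 14 rose and 3 fell (0.86), and of 7 SnRK2 kinase genes 3 rose and 2 fell (0.41). The kept rises numbered 2, 10 and 2, and the kept falls 1, 0 and 2. The receptor gene PYL9 (GRMZM2G048733) stood at 7.98 and 8.23 FPKM when watered and 39.2 and 43.3 FPKM under drought (2.21 ± 0.16 in log2, limma adjusted p = 0.000245) and PYL10 (GRMZM2G063882) at 27.8 and 24.97 FPKM when watered and 58.98 and 64.1 FPKM under drought (1.19 ± 0.15 in log2). The receptor gene PYL3 (GRMZM2G047677) fell from 3.44 and 3.33 to 0.181 and 0.385 FPKM (-1.78 ± 0.19 in log2, limma adjusted p = 0.000866). In none of the 3 did the conditions overlap.

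Of the phosphatases PP2C4 was the highest under drought, at 339.7 and 361 FPKM, followed by PP2C (GRMZM2G166035), at 91.2 and 77.4 FPKM when watered and 226 and 242 FPKM under drought (1.47 ± 0.16 in log2, limma adjusted p = 0.000985), and PP2C2 (GRMZM2G134628), at 58.6 and 60.7 FPKM when watered and 213 and 221 FPKM under drought (1.85 ± 0.14 in log2, limma adjusted p = 0.000313). Among those low in the controls, PP2C13 (GRMZM2G159811) stood at 3.2 and 5.05 FPKM when watered and 28.3 and 36.5 FPKM under drought (2.72 ± 0.25 in log2) and PP2C15 (GRMZM2G300125) at 1.47 and 1.72 FPKM when watered and 11.1 and 12.8 FPKM under drought (2.32 ± 0.19). The kinase gene SnRK2.1 (GRMZM2G035809) stood at 14.5 and 16.2 FPKM when watered and 88.8 and 97.7 FPKM under drought (2.53 ± 0.15 in log2, limma adjusted p = 0.000153) and SnRK2.6 (GRMZM2G130018) at 45.8 and 44.05 FPKM when watered and 118 and 129.7 FPKM under drought (1.44 ± 0.14 in log2, limma adjusted p = 0.000718). The kinase gene SnRK2.7 (GRMZM2G155593) moved the other way, with 39.5 and 46.8 FPKM when watered and 5.35 and 7.32 FPKM under drought (-2.60 ± 0.20 in log2, limma adjusted p = 0.000325), and SnRK2.11 (GRMZM2G063961) fell from 30.9 and 28.7 to 10.3 and 9.95 FPKM (-1.47 ± 0.15 in log2).

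**Figure D4:**
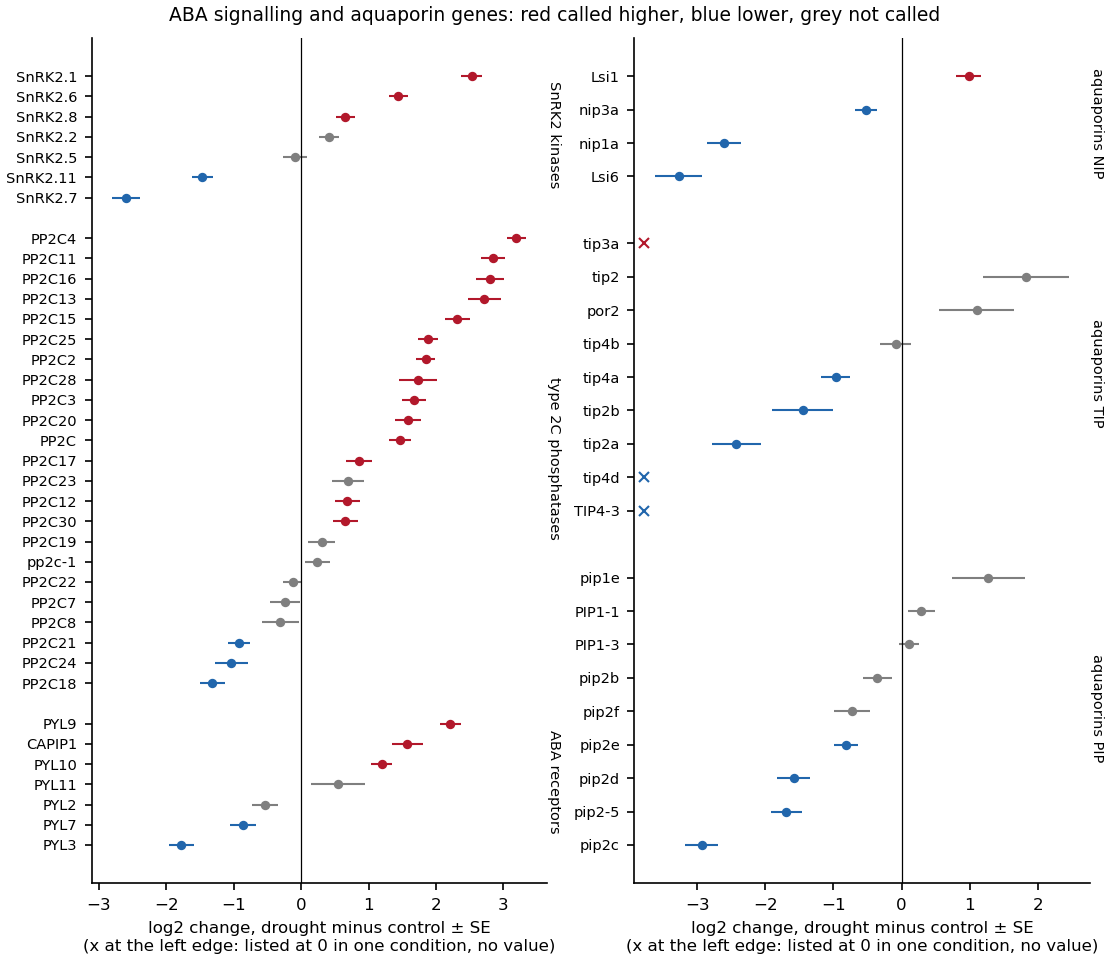
Log2 change (drought minus control, log2(FPKM + 1) scale) with its standard error for genes of abscisic acid reception and signalling (left) and aquaporins (right). Points are red where called higher, blue where called lower and grey where not called, and a cross at the left edge marks a gene listed at 0 in 1 condition. Most phosphatases lie to the right of 0, and most called aquaporins to the left.

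Aquaporins, the water channels of membranes, mostly fell where they were called. Among plasma membrane aquaporins 4 of 9 fell and none rose (median log2 change -0.73). The fall of 1, pip2c (GRMZM2G081192), was kept, at 50.8 and 69.3 FPKM when watered and 5.71 and 8.28 FPKM under drought (-2.94 ± 0.24 in log2, limma adjusted p = 0.000377). The most abundant, PIP1-1 (GRMZM2G174807), was not called, at 330.2 and 389 FPKM when watered and 392 and 492 FPKM under drought. In the tonoplast 5 of 9 fell and 1 rose (median -0.97, or -0.53 without the 3 genes at 0), with 1 fall and the rise kept. The abundant tip2a (GRMZM2G027098) stood at 366 and 702 FPKM when watered and 75.7 and 115 FPKM under drought (-2.43 ± 0.36 in log2, limma adjusted p up to 0.0694 without drought 1 or drought 2). The gene tip3a (GRMZM2G305446), of a class found in seed storage vacuoles, was listed at 0 in both controls and stood at 12.2 and 19.2 FPKM under drought. In the NIP class 3 of 4 fell and 1 rose, 2 and none of them kept. The NIP gene nip1a (GRMZM2G041980) stood at 414 and 617 FPKM when watered and 94.3 and 71.7 FPKM under drought (-2.60 ± 0.25 in log2, limma adjusted p = 0.000647), and the silicon channel gene Lsi6 (GRMZM2G081239) at 13.9 and 24.8 FPKM when watered and 0.631 and 1.54 FPKM under drought (-3.27 ± 0.35 in log2, limma adjusted p = 0.000866).

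Cytokinin genes rose in 11 of 23 cases and fell in 2 (median log2 change 0.54), 6 and 1 of these kept. The largest rises were in enzymes that remove or store the hormone. Of the oxidases CKX4 (GRMZM5G817173) stood at 5.09 and 7.54 FPKM when watered and 88.7 and 106 FPKM under drought (3.76 ± 0.22 in log2, limma adjusted p = 0.000135), CKX5 (GRMZM2G325612) at 3.57 and 1.75 FPKM when watered and 25.2 and 29.8 FPKM under drought (3.0 ± 0.28 in log2, limma adjusted p = 0.000582) and cko1 (GRMZM2G146644) at 0.882 and 0.64 FPKM when watered and 4.61 and 5.58 FPKM under drought (1.79 ± 0.20 in log2). The exception was CKX6 (GRMZM2G404443), which fell from 8.89 and 7.83 to 1.46 and 1.38 FPKM (-1.95 ± 0.18 in log2, limma adjusted p = 0.000598), and CKX10 (GRMZM2G348452), at 42.05 and 50.9 FPKM when watered and 55.2 and 86.99 FPKM under drought, was not called. Both genes for glucosylation of cis-zeatin rose: ciszog1 stood at 59.9 and 131 FPKM under drought against 2.81 and 1.23, and CISZOG2 (GRMZM2G110511) at 0.547 and 0.167 FPKM when watered and 12.6 and 32.95 FPKM under drought (4.0 ± 0.44 in log2, limma adjusted p up to 0.0535 without control 2). The synthesis gene IPT1 (GRMZM2G097258) was not called, at 5.57 and 6.07 FPKM when watered and 8.22 and 8.86 FPKM under drought.

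Fewer genes of cytokinin signalling were kept. Of the receptors hk2 (GRMZM2G471529) rose from 15.8 and 14.9 to 52.5 and 62.6 FPKM (1.84 ± 0.16 in log2, limma adjusted p = 0.00048), HK1 was not called, and hk3 stood at 9.59 and 6.32 FPKM when watered and 4.5 and 2.74 FPKM under drought (limma adjusted p = 0.0343, and up to 0.227 with a library left out). None of the phosphotransfer genes HP1, hp2 and HP3 was called. Among response regulators RR9 (GRMZM2G060485) stood at 6.81 and 5.27 FPKM when watered and 31.5 and 36.1 FPKM under drought (2.31 ± 0.19 in log2, limma adjusted p = 0.000377), while RR4, RR6 and RR7 were not called.

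**Figure D5:**
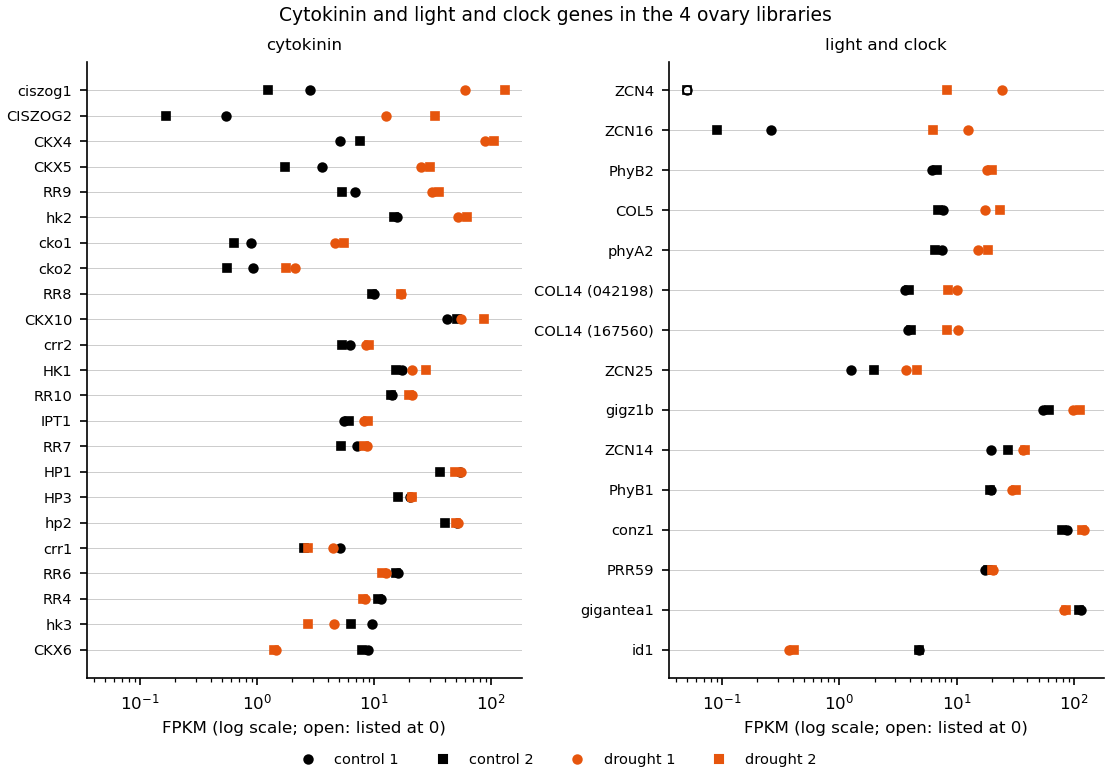
FPKM of the 23 cytokinin genes and 15 light and clock genes in each of the 4 ovary libraries on a log scale, controls in black and drought in orange, replicate 1 as a circle and replicate 2 as a square, with values listed at 0 drawn open at the left edge. The orange symbols lie to the right for the cytokinin oxidases CKX4 and CKX5 and for the phytochromes, and to the left for CKX6 and id1.

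Auxin genes fell more often than they rose. Of 19 Aux/IAA and transport genes 9 fell and 2 rose (median log2 change -0.57), and of 15 response factors 6 fell and 2 rose (-0.26). Of the falls 4 and 3 were kept, and of the rises 1 and none. Aux/IAA proteins repress the response factors. The Aux/IAA gene aux2 (GRMZM2G156470) stood at 5.78 and 8.07 FPKM when watered and 0.537 and 0.884 FPKM under drought (-2.20 ± 0.23 in log2, limma adjusted p = 0.000866) and AUX3 (GRMZM2G004696) at 29.6 and 41.7 FPKM when watered and 8.31 and 5.87 FPKM under drought (-2.17 ± 0.24 in log2), whereas AUX15 (GRMZM2G079200) rose from 2.7 and 3.49 to 13.2 and 21.04 FPKM (2.12 ± 0.27 in log2, limma adjusted p = 0.00156). The most abundant, AUX6 (GRMZM2G035465), split its replicates, at 295 and 277 FPKM when watered and 219 and 28.3 FPKM under drought, and was not called. The response factor gene ARF12 (GRMZM2G437460) stood at 17.4 and 15.1 FPKM when watered and 1.58 and 1.76 FPKM under drought (-2.69 ± 0.19 in log2, limma adjusted p = 0.000233), and ARF23 (GRMZM2G441325) at 10.1 and 9.2 FPKM when watered and 2.05 and 1.38 FPKM under drought (-1.98 ± 0.21 in log2). The efflux carrier gene PIN10a (GRMZM2G126260) stood at 16.8 and 16.5 FPKM when watered and 7.9 and 7.87 FPKM under drought (-0.99 ± 0.16 in log2, limma adjusted p = 0.00396, and limma adjusted p up to 0.0545 without drought 2), while PIN1a and PINY were not called.

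TIFY proteins, which include the repressors of jasmonate response, gave no call that was kept. Of 18 genes 4 rose and 1 fell (median log2 change 0.23). The largest rise, in pnFL-2 (GRMZM2G005954), was from 8.56 and 1.74 to 22.3 and 38.7 FPKM with controls that differed severalfold (2.57 ± 0.60 in log2, limma adjusted p = 0.0148, and up to 0.183 without control 2, drought 1 or drought 2).

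The light and clock list had the largest share of rises of all lists, 12 of 15, with 1 fall (median log2 change 0.98, or 0.91 without the gene at 0). Its 15 IDs matched 14 RefSeq genes. The rises were in phytochrome genes, genes named ZCN, COL and conz1, and gigz1b. Only 2 of these rises were kept, and so was the fall. The red light receptor gene PhyB2 (GRMZM2G092174) stood at 6.14 and 6.77 FPKM when watered and 17.99 and 19.9 FPKM under drought (1.42 ± 0.17 in log2, limma adjusted p = 0.00131), and phyA2 (GRMZM2G181028) at 7.44 and 6.49 FPKM when watered and 15.1 and 18.3 FPKM under drought (1.15 ± 0.19 in log2, limma adjusted p up to 0.0636 without control 2 or drought 2). The genes named ZCN belong to the family of the flowering signal FT. The gene ZCN16 (GRMZM2G127121) stood at 0.263 and 0.0899 FPKM when watered and 12.4 and 6.26 FPKM under drought (3.07 ± 0.32 in log2, limma adjusted p = 0.000835). The gene ZCN4 (GRMZM2G075081) was listed at 0 in both controls and stood at 24.2 and 8.25 FPKM under drought, a rise that was not kept. The flowering regulator gene id1 (GRMZM2G011357) fell from 4.76 and 4.82 to 0.369 and 0.41 FPKM (-2.06 ± 0.18 in log2, limma adjusted p = 0.000447). The 2 gigantea copies differed: gigz1b (GRMZM5G844173) stood at 54.3 and 60.99 FPKM when watered and 97.9 and 112 FPKM under drought (0.85 ± 0.16 in log2, limma adjusted p up to 0.0703 without control 1 or drought 2) and gigantea1 (GRMZM2G107101), at 115 and 111 FPKM when watered and 82.8 and 86.1 FPKM under drought, was not called.

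DNA synthesis fell in 9 of 16 genes and 1 rose (median log2 change -1.23), with 8 falls and the rise kept. Falls included genes of nucleotide supply and of the replication fork. The ribonucleotide reductase small subunit genes, which make deoxynucleotides, all tested were lower: RNRS1 (GRMZM2G060163) fell from 26.7 and 32.5 to 1.75 and 1.72 FPKM (-3.48 ± 0.19 in log2, limma adjusted p = 0.000111). The gene RNRS3 (GRMZM2G323679) fell from 26 and 31.96 to 1.01 and 0.301 FPKM (-4.2 ± 0.27 in log2, limma adjusted p = 0.000179). The gene SLD5 (GRMZM2G164325), of the complex that starts the replicative helicase, fell from 10.8 and 13.7 to 1.24 and 0.998 FPKM (-2.64 ± 0.21 in log2). None of the 4 origin recognition genes orc1 to orc4 was called, and Top1 (GRMZM2G092451), a topoisomerase gene, rose from 66.2 and 58.4 to 146 and 129.8 FPKM (1.13 ± 0.16 in log2, limma adjusted p = 0.00221).

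Cell cycle control showed both signs, 5 rising and 9 falling of 21 (median log2 change -0.19, or -0.0074 without the 2 genes at 0), 2 and 6 of them kept. The gene SMR4 (GRMZM2G019353), of the SIAMESE-related inhibitors of cyclin-dependent kinases, stood at 13.1 and 10.4 FPKM when watered and 103 and 115 FPKM under drought (3.11 ± 0.17 in log2, limma adjusted p = 0.000124). The mitotic cyclin gene cyc3 (GRMZM2G073671) was listed at 0 in both drought libraries and stood at 5.59 and 3.96 FPKM in the controls. The D-type cyclins moved apart: cycD1 (GRMZM2G006721) fell from 12.9 and 13.98 to 2.33 and 2.96 FPKM (-1.99 ± 0.19 in log2) and cycD2 (GRMZM2G075117) rose from 62.4 and 61.5 to 136 and 132 FPKM (1.10 ± 0.14 in log2, limma adjusted p = 0.00162). The inhibitory kinase gene wee1 (GRMZM5G878541) fell from 8.77 and 7.73 to 1.12 and 0.907 FPKM (-2.20 ± 0.19 in log2, limma adjusted p = 0.000446), and the spindle checkpoint gene mad2 (GRMZM2G047143) from 22.7 and 17.8 to 1.71 and 1.44 FPKM (-3.04 ± 0.20 in log2, limma adjusted p = 0.000213).

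Of 13 meiosis and recombination genes 7 fell, while none rose (median log2 change -0.64), with 4 kept. The strand exchange genes rad51a (GRMZM2G121543) and Dmc1 (GRMZM2G109618) stood at 9.27 and 9.28 FPKM when watered and 1.32 and 1.33 FPKM under drought (-2.14 ± 0.18 in log2, limma adjusted p = 0.000392) and at 8.1 and 7.43 FPKM when watered and 1.67 and 1.98 FPKM under drought (-1.64 ± 0.19 in log2). The meiotic cohesin gene afd1 (GRMZM2G059037) fell from 5.2 and 4.93 to 0.947 and 0.32 FPKM (-1.92 ± 0.24 in log2, limma adjusted p = 0.00161). The general cohesin gene SMC3 (GRMZM2G456570) was not called, at 48.9 and 46.4 FPKM when watered and 63.2 and 62.2 FPKM under drought.

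Chromatin genes were called at about the background share, 14 rising and 17 falling of 62 (1 and 6 kept), with a median log2 change of -0.0037 that turned to 0.064 under quantile normalization. The 62 IDs matched 57 RefSeq genes, and chr122 and chr124 each rose under more than 1 ID. Within the list 3 high mobility group genes, whose products bend DNA, had the lowest log2 changes of the genes above 0 in all libraries. The gene nfd106 (GRMZM2G125648) stood at 51.7 and 66.8 FPKM when watered and 0.77 and 0.464 FPKM under drought (-5.21 ± 0.21 in log2, limma adjusted p = 5.89e-05), nfd101 (GRMZM2G066528) at 158 and 116 FPKM when watered and 6.28 and 2.23 FPKM under drought (-4.82 ± 0.40 in log2, limma adjusted p = 0.000387) and HMG5 (GRMZM2G060253) at 31.5 and 27.4 FPKM when watered and 0.409 and 0.325 FPKM under drought (-4.48 ± 0.18 in log2). Other members of that group, nfd102 (GRMZM2G145968) and hmg2 (GRMZM2G013821), were not called, at 123.1 and 98.1 FPKM when watered and 107 and 108 FPKM under drought and at 214 and 158 FPKM when watered and 171 and 142 FPKM under drought respectively. Further members moved both ways, none of them kept: hmg3 (GRMZM2G156785) fell, while nfd110 (GRMZM2G032252) and MNB1B (GRMZM5G834758) rose. The histone deacetylase gene hda113 (GRMZM2G058573) was listed at 0 under drought and stood at 32.1 and 27.6 FPKM in the controls. The methyl-CpG binding protein gene mbd123 (GRMZM2G119802) rose from 25.6 and 17.6 to 84.9 and 89.1 FPKM (1.98 ± 0.21 in log2, limma adjusted p = 0.000826). Among DNA methyltransferases the chromomethylase gene met2 (GRMZM2G025592) fell from 19.4 and 11.4 to 0.307 and 0.203 FPKM (-3.67 ± 0.28 in log2, limma adjusted p = 0.000304). The gene met5 (GRMZM2G005310) fell from 13.3 and 7.19 to 1.71 and 1.84 FPKM (-1.96 ± 0.30 in log2) but was not kept, while met4 and both IDs of dmt101 were not called. In small RNA production dcl1, the Dicer of microRNAs, was listed at 0 in both controls and stood at 41.9 and 52.1 FPKM under drought, and none of the 3 IDs named dcl4 was called.

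Factors that pattern lateral organs fell more often than they rose. Of 24 YABBY, KANADI, WOX, LOB and related genes 12 fell and 5 rose (median log2 change -0.72), 3 and 3 of these kept. The KANADI genes, which set the lower side of organs, were low and fell, kan1 (GRMZM2G056400) from 5.63 and 5.94 to 1.13 and 1.07 FPKM (-1.69 ± 0.18 in log2, limma adjusted p = 0.000868) and kan3 (GRMZM2G175827) from 4.52 and 4.1 to 0.472 and 0.485 FPKM (-1.84 ± 0.18 in log2). The YABBY gene yabby15 (GRMZM2G529859) fell from 46.97 and 46.2 to 16.2 and 13.01 FPKM (-1.62 ± 0.17 in log2, limma adjusted p = 0.000818), while the most abundant YABBY gene, YAB5 (GRMZM2G116646), had overlapping levels, at 210.2 and 246 FPKM when watered and 134 and 229 FPKM under drought. The gene wox13B (GRMZM5G805026) rose from 7.94 and 6.98 to 20.5 and 22.9 FPKM (1.42 ± 0.17 in log2, limma adjusted p = 0.00133), and neither of the 2 IDs named wox13A rose. The MYB gene rs2 (GRMZM2G403620), which keeps KNOX genes off in leaves, stood at 14.1 and 16.4 FPKM when watered and 3.86 and 1.96 FPKM under drought (-2.09 ± 0.28 in log2, limma adjusted p up to 0.0613 without control 2). Homeobox genes rose more often than they fell, 11 rising and 6 falling of 27 (median 0.42, or 0.40 without genes at 0), with 4 and 2 kept. The largest rise above 0 in all libraries was in HB45 (GRMZM2G126808), from 8.24 and 6.49 to 66.3 and 87.6 FPKM (3.21 ± 0.21 in log2, limma adjusted p = 0.000183).

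SBP-box, TCP, DOF and GATA factors divided, 12 rising and 10 falling of 35 (median log2 change -0.094), 1 and 6 of them kept. Among SBP-box genes, ub2 (GRMZM2G160917), which limits the number of kernel rows, fell from 6.64 and 8.19 to 0.846 and 1.17 FPKM (-2.07 ± 0.21 in log2, limma adjusted p = 0.000713), and its partner ub3 (GRMZM2G460544) from 10.1 and 13.6 to 3.41 and 2.8 FPKM (-1.64 ± 0.22 in log2, limma adjusted p up to 0.0524 without drought 2). The gene tga1 (GRMZM2G101511), the glume architecture gene of maize domestication, fell from 9.89 and 13 to 2 and 3.05 FPKM (-1.82 ± 0.24 in log2, limma adjusted p = 0.00188). The gene TCP20 (GRMZM2G034638) rose from 2.08 and 1.71 to 8.16 and 9.03 FPKM (1.73 ± 0.19 in log2, limma adjusted p = 0.000963). Of 16 growth-regulating factor genes 4 rose and 5 fell, none and 2 of them kept. The largest fall was in GRF3 (GRMZM2G105335), from 7.68 and 10.04 to 1.13 and 0.527 FPKM (-2.44 ± 0.25 in log2, limma adjusted p = 0.000775). The cell number regulator gene CNR1 (GRMZM2G015941), which restrains organ size, fell from 15.8 and 15.8 to 1.82 and 1.4 FPKM (-2.69 ± 0.19 in log2, limma adjusted p = 0.000237), while CNR2 (GRMZM2G151230) stood at 7.95 and 5.08 FPKM when watered and 34.2 and 63.02 FPKM under drought (2.69 ± 0.34 in log2, limma adjusted p up to 0.0566 without control 2).

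Several leucine-rich repeat receptors of development fell. The gene ERECTA (GRMZM5G809695), of inflorescence and stomatal growth in Arabidopsis, stood at 94.7 and 69.8 FPKM when watered and 6.78 and 3.05 FPKM under drought (-3.87 ± 0.34 in log2, limma adjusted p = 0.000474). The meristem size receptor gene fea3 (GRMZM2G166524) stood at 29.1 and 38.8 FPKM when watered and 9.07 and 6.9 FPKM under drought (-1.95 ± 0.22 in log2, limma adjusted p = 0.00105), while fea2 (GRMZM2G104925), which acts on the same process, was not called, at 11.7 and 11.1 FPKM when watered and 13.7 and 14.4 FPKM under drought. The cell polarity gene pangloss2 (GRMZM2G034572) fell from 32.5 and 29.7 to 5.46 and 4.89 FPKM (-2.38 ± 0.17 in log2, limma adjusted p = 0.000241). The gene ltk1 (GRMZM2G153393) rose from 157 and 138 to 369 and 364 FPKM (1.31 ± 0.16 in log2, limma adjusted p = 0.0014). Over the 18 receptor genes 4 rose and 7 fell, 2 and 4 of them kept, with a median log2 change of -0.0057 that turned to 0.066 under quantile normalization.

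Most genes in the cell wall lists fell. Of 6 polysaccharide and wall protein genes 4 fell and none rose (median log2 change -2.33), all 4 kept. The COBRA-like gene bk2 (GRMZM2G109326), needed for cellulose in stalks, fell from 11.7 and 18.5 to 0.201 and 0.0889 FPKM (-3.78 ± 0.26 in log2, limma adjusted p = 0.000223), and its relative bk4 (GRMZM2G168364) from 105 and 131 to 22.2 and 28.03 FPKM (-2.19 ± 0.19 in log2). The reversibly glycosylated polypeptide gene RGP (GRMZM2G073725) stood at 341 and 333 FPKM when watered and 56.7 and 63.2 FPKM under drought (-2.47 ± 0.15 in log2, limma adjusted p = 0.000157). Cellulases, which loosen walls, fell in 5 of 6 cases (4 kept, median -2.09), the most abundant being Cel12Chr1 (GRMZM2G178025), at 33.3 and 56.5 FPKM when watered and 3.15 and 4.86 FPKM under drought (-3.17 ± 0.31 in log2, limma adjusted p = 0.000647). Outside both lists, the gene xet1 (GRMZM2G026980), named for a xyloglucan endotransglycosylase, rose. Its log2 change was 3.10 to 3.70 over the fits with 1 library left out. Actin genes differed by copy: Actin-7 (GRMZM2G006765) fell from 119 and 91.1 to 4.28 and 4.91 FPKM (-4.24 ± 0.19 in log2, limma adjusted p = 6.92e-05), while act1 (GRMZM2G126010) rose from 44.8 and 48.9 to 133 and 145 FPKM (1.55 ± 0.15 in log2, limma adjusted p = 0.000612). In the actin and myosin list 10 of 18 fell and 3 rose (median -0.80, or -0.81 without the gene at 0), 5 and 2 of them kept.

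Lipid and surface genes fell in 9 of 16 cases and 1 rose (median log2 change -1.0), with 7 falls and no rise kept. The elongase gene fae1 (GRMZM2G022558), of very long fatty acids, stood at 76.6 and 79.8 FPKM when watered and 3.98 and 4.23 FPKM under drought (-3.96 ± 0.15 in log2, limma adjusted p = 5.32e-05). The epidermal homeodomain genes ocl1 (GRMZM2G026643) and ocl3 (GRMZM2G116658) stood at 46.98 and 54.5 FPKM when watered and 13.7 and 14.03 FPKM under drought (-1.80 ± 0.16 in log2, limma adjusted p = 0.000465) and at 24.2 and 35.7 FPKM when watered and 4.2 and 5.95 FPKM under drought (-2.34 ± 0.26 in log2). The wax gene name CER1 belongs to 2 IDs with opposite changes. The one that fell, GRMZM2G066578, stood at 136 and 197 FPKM when watered and 1.67 and 1.21 FPKM under drought, and GRMZM2G099097 stood at 19.9 and 9.6 FPKM when watered and 84.8 and 173 FPKM under drought (3.04 ± 0.44 in log2, limma adjusted p up to 0.0655 without control 2 or drought 2). Of the desaturase genes, fad8 and the ID listed as FAD2 were not called. The ID listed as fad2 (GRMZM2G064701) fell, with log2 changes of -1.38 to -1.08 over the fits with 1 library left out. The gene fad7 (GRMZM2G128971) fell but was not kept, with log2 changes of -2.36 to -1.74 over those fits.

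Translation and protein folding fell in part. Of 12 translation factor genes 6 fell and 1 rose (median log2 change -0.41, or -0.28 without the gene at 0), with 4 falls and no rise kept. These were in elongation: EF1-A (GRMZM2G153541) stood at 628 and 589 FPKM when watered and 197 and 166 FPKM under drought (-1.74 ± 0.17 in log2, limma adjusted p = 0.000728) and elfa3 (GRMZM2G154218) at 624 and 608 FPKM when watered and 255 and 228 FPKM under drought (-1.35 ± 0.17 in log2), besides elfa7 and the listed zero of eif5a. The cap binding gene eIF4E1 (GRMZM2G002616) was not called, at 86 and 83.2 FPKM when watered and 84.3 and 76.9 FPKM under drought, nor was tif5A (GRMZM2G144030), at 376 and 448 FPKM when watered and 382 and 363 FPKM under drought. In the endoplasmic reticulum 11 of 20 folding genes fell and 2 rose (median -0.58), 5 and none of them kept. The chaperone genes bip1 (GRMZM2G114793) and bip2 (GRMZM2G415007) stood at 123.5 and 106 FPKM when watered and 20.1 and 22.5 FPKM under drought (-2.37 ± 0.16 in log2, limma adjusted p = 0.000217) and at 70.6 and 61.3 FPKM when watered and 20.8 and 20.1 FPKM under drought (-1.64 ± 0.15 in log2). The disulfide isomerase gene pdi2 (GRMZM2G163421) fell from 69.4 and 80.8 to 6.1 and 6.34 FPKM (-3.39 ± 0.16 in log2, limma adjusted p = 7.67e-05).

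Heat shock regulators moved in both directions. The factor gene Hsf05, as GRMZM2G133023, rose from 11.1 and 12.7 to 159 and 203 FPKM (3.81 ± 0.18 in log2, limma adjusted p = 7.67e-05), while the other ID of that name was not called. The binding protein gene emp2 (GRMZM2G039155), which restrains heat shock factors, fell from 64.05 and 51.7 to 17.1 and 18.8 FPKM (-1.63 ± 0.17 in log2, limma adjusted p = 0.00086), as did HSF2 (GRMZM2G088242), from 4.64 and 4.63 to 0.654 and 0.383 FPKM (-1.90 ± 0.19 in log2). Over 11 genes 4 rose and 4 fell, of which 1 and 3 were kept.

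Redox enzymes fell in 12 of 24 cases and rose in 2 (median log2 change -0.51), 5 and 2 of these kept. The catalase gene cat1 (GRMZM2G088212) rose from 166 and 163 to 410.1 and 488 FPKM (1.43 ± 0.17 in log2, limma adjusted p = 0.00127). The manganese superoxide dismutase gene sod3 (GRMZM2G059991) fell from 170.4 and 218 to 71.2 and 54.9 FPKM (-1.61 ± 0.21 in log2, limma adjusted p = 0.00167) and the copper and zinc type sod2 (GRMZM2G025992) from 195 and 175 to 73.8 and 71.9 FPKM (-1.33 ± 0.15 in log2), while sod9 (GRMZM2G058522) was not called, at 429.5 and 357 FPKM when watered and 416 and 418 FPKM under drought. The ascorbate peroxidase gene apx2 (GRMZM2G140667) changed least of all named genes with means of 100 FPKM or more, at 179.7 and 143 FPKM when watered and 149 and 175 FPKM under drought.

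Ion transport showed isoform shifts. Of 28 pump and channel genes 10 rose and 4 fell (median log2 change 0.073), 5 and 3 of them kept. Potassium transporters of the HAK family went both ways. The gene HAK25 (GRMZM2G375116) rose from 58.4 and 56.4 to 164 and 169.7 FPKM (1.52 ± 0.14 in log2, limma adjusted p = 0.000557) and HAK11 (GRMZM2G005040) from 2.13 and 2.05 to 16.3 and 16.2 FPKM (2.48 ± 0.17 in log2), whereas HAK8 (GRMZM2G173387) fell from 73.2 and 74.2 to 22.5 and 23.1 FPKM (-1.65 ± 0.14 in log2, limma adjusted p = 0.000423). Among proton pumps, the pyrophosphatase gene vpp1 (GRMZM2G069095) rose from 44.3 and 43.9 to 97.8 and 97.4 FPKM (1.13 ± 0.14 in log2, limma adjusted p = 0.00142), vpp3 (GRMZM2G421857) fell from 317 and 271 to 134 and 112 FPKM (-1.25 ± 0.18 in log2, limma adjusted p = 0.00247) and the plasma membrane pump gene mha4 (GRMZM2G006894), at 170.3 and 169.7 FPKM when watered and 153 and 224 FPKM under drought, was not called. The phosphate transporter gene pht7 (GRMZM2G112377) fell from 15.6 and 10.3 to 0.687 and 0.22 FPKM (-3.26 ± 0.28 in log2, limma adjusted p = 0.000437) and the nitrate transporter gene NRT1.2 (GRMZM5G811593) from 19.1 and 26.6 to 3.47 and 3.65 FPKM (-2.37 ± 0.21 in log2).

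Calcium signalling genes rose in 7 of 24 cases and fell in 3 (median log2 change 0.27), 3 and 1 of these kept. The share of rises was near the 23.6% of all tested genes, and that of falls was below their 29.5%. The calcineurin B-like sensor gene CBL5 (GRMZM2G041729) rose from 6.76 and 5.13 to 23.7 and 22.2 FPKM (1.79 ± 0.19 in log2, limma adjusted p = 0.000866), and CIPK16 (GRMZM2G330049), of the kinases such sensors bind, from 2.48 and 3.26 to 9.78 and 11.6 FPKM (1.60 ± 0.20 in log2). The calmodulin gene CaM1 (GRMZM2G152891) fell from 144 and 188 to 48.3 and 52.03 FPKM (-1.70 ± 0.18 in log2, limma adjusted p = 0.000903).

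The genes listed here as common references for expression were called without exception. All 8 of the actin, elongation factor and glyceraldehyde-3-phosphate dehydrogenase references were called, 7 falling and 1, act1, rising (median log2 change -1.32), 5 and 1 of them kept. The steadiest named genes with means of 100 FPKM or more included the ubiquitin conjugase gene ubc7 (GRMZM2G012052), at 135 and 138 FPKM when watered and 138 and 129 FPKM under drought, and PDIL5-1 (GRMZM2G443655), at 121 and 112 FPKM when watered and 117 and 125 FPKM under drought. In both, the spread within a condition was as large as the difference between conditions.

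Genes listed at 0 in both libraries of a condition numbered 283 for the controls and 358 for drought. The median level in the other condition was 16.6 FPKM for the first and 10.2 FPKM for the second, and 47 genes of each reached 50 FPKM there. Among the first with a name, the homeobox gene homeobox3 (GRMZM2G314546) stood at 62.9 and 54.4 FPKM under drought, the acetyltransferase gene GNAT42 (GRMZM5G818977) at 52.1 and 50.9 FPKM and myosin2 (GRMZM2G034362) at 43.1 and 43 FPKM. A second ID named myosin2 was not called, at 28.8 and 24.4 FPKM when watered and 28.9 and 27.6 FPKM under drought. Among the second, the cationic amino acid transporter gene caat1 (GRMZM2G064426) stood at 36.99 and 24.8 FPKM in the controls. Many of these genes were measured elsewhere in the study: 168 of the first and 241 of the second were above 0 in all 4 leaf meristem libraries. A value of 0 can be a failed estimate, so absence of the transcript is not shown.

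At the limit of 1 FPKM, the named genes just inside were mstr1 (GRMZM2G135739), at 2.23 and 1.14 FPKM when watered and 0.295 and 0.338 FPKM under drought, and TIFY9 (GRMZM2G145412), at 2.19 and 0.182 FPKM when watered and 0.75 and 0.934 FPKM under drought. Just outside were COL8 (GRMZM2G114137), at 0.945 and 1.2 FPKM when watered and 0.99 and 0.816 FPKM under drought, and EREB101 (GRMZM2G003466), at 1.49 and 1.87 FPKM when watered and 0.433 and 0.0918 FPKM under drought.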

How the data were processed

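RNA carrying poly(A) tails from ovaries was sequenced on the Illumina Genome Analyzer IIx, per the labels' protocols. The deposited values are FPKM per gene and library, made by the authors. CASAVA 1.8, TopHat 1.2.0 and Cufflinks 1.0.2 are named in the submitters' processing notes, without their roles, and no genome build or annotation is given in the sources used here. Without read counts the depth is unknown.

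Ovary libraries were compared with limma 3.58.1 in R 4.3.3 (lmFit and eBayes with a trend in the variance) on log2(FPKM + 1), over the 23770 genes whose mean reached 1 FPKM, with Benjamini-Hochberg adjustment over all of them and a threshold of 0.05. The pseudocount of 1 FPKM understates the change of low genes. The fit had 2 residual degrees of freedom and a prior of 3.74, and was tested on simulated data. Of the 26380 IDs, 16218 matched RefSeq genes of assembly Zm-B73-REFERENCE-NAM-5.0 through their synonyms and 2096 had a gene name.

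The comparison and the gene lists, 40 drawn up at the start and 30 added from gene names after the IDs were matched, besides the green tissue markers, were chosen with earlier results of these data known. Genes named were, per list, up to 3 called genes each way with the largest log2 change and up to 2 listed at 0 in a condition. To these came the 10 most abundant in each condition, the 10 with the largest change in FPKM and the 20 with the largest log2 change each way, the 10 highest listed at 0 in a condition, the 10 steadiest at 100 FPKM or more, and the 2 either side of 1 FPKM. Other genes, mostly family members that were not called, were named after their values were seen. Alternatives were 2 other pseudocounts, 2 other filters, quantile and upper quartile scaling, no trend, exclusion of genes at 0, a 2-fold minimum, a replicate block and each library left out. Promoter motifs were not searched and no sequence is shown. Results for a few genes are not reported here.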

Additional observations from a re-analysis of the deposited data

How the results depend on the processing

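With at least a 2-fold change required, 3254 genes rose and 4668 fell. With 1 library left out the rises ranged from 2257 to 3791 and the falls from 3543 to 4804, against 5614 and 7004 with all 4. In 3 genes that were not called with all 4 libraries, the sign turned, with a call, when a control was left out. The log2 change of TIFY28 (GRMZM2G036351) ranged from -0.76 (without control replicate 2) to 1.205 over the 4 fits, that of mgs1 (GRMZM2G317406) from -0.56 (without control replicate 2) to 0.76, and that of TIFY9 (GRMZM2G145412) from -0.80 to 0.64 (without control replicate 1). Among 621 called genes of the lists and the naming rule, 302 were called whichever library was left out. Pseudocounts of 0.1 and 0.01, no trend, a mean of at least 5 FPKM or no filter, exclusion of genes at 0 and upper quartile scaling left both counts within 1.5 times of these, and so did counting 1 ID per set of equal values, an alternative chosen after seeing the data. A pseudocount of 0.01 FPKM moved the log2 change of low genes most, such as MYB134 (GRMZM2G001824) from 2.93 to 6.82 and bk2 (GRMZM2G109326) from -3.78 to -6.67. Quantile normalization gave RAB15 (GRMZM2G165901) a log2 change of 4.70. The 2 genes above 100000 FPKM in control 2 were part of that step, which averages values of equal rank over the libraries. Their part in the value of RAB15, the most abundant named gene under drought, was not tested. The falls of aba1 (GRMZM2G136910) and mpik32a (GRMZM2G160687) were lost under quantile normalization, with limma adjusted p of 0.0529 and 0.134, and with the replicate block, with 0.0557 and 0.052. The cause was not tested.

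The replicate numbers 1 and 2 are shared by the conditions, but nothing in the labels says that a number marks a shared plant or day. Deviations of same-numbered libraries from their means correlated at 0.112 over 23770 genes. With the replicate number as a block 5862 genes rose and 7283 fell, within 1.5 times of the counts without it. With 2 libraries per condition and no counts, changes in genes near 1 FPKM are the least certain.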

Other observations

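Glutathione transferases, which conjugate toxins and lipid peroxides to glutathione, were called at about the background shares of 23.6% rising and 29.5% falling. Of 23 genes 5 rose and 7 fell (median log2 change 0.06), 3 and 6 of them whichever library was left out. The gene gst1 (GRMZM2G116273) stood at 408 and 444 FPKM when watered and 48.2 and 50.4 FPKM under drought (-3.09 ± 0.15 in log2, limma adjusted p = 8.15e-05), and gst2 (GRMZM2G132093) was listed at 0 in both drought libraries against 8.33 and 7.9 FPKM. The gene gst20 (GRMZM2G056388) rose from 46.2 and 47.9 to 172 and 197 FPKM (1.95 ± 0.15 in log2, limma adjusted p = 0.000321). Annexins, calcium-dependent membrane proteins, rose in 4 of 7 cases and fell in 2, 2 and 1 of them whichever library was left out. The abundant annexin1 (GRMZM2G064993) fell from 175 and 235 to 49.8 and 44.2 FPKM (-2.09 ± 0.19 in log2, limma adjusted p = 0.000551), while Ann5 (GRMZM2G172834) rose from 5.96 and 5.25 to 20.3 and 25.1 FPKM (1.84 ± 0.19 in log2, limma adjusted p = 0.000776).

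Among aldehyde dehydrogenases rf2c (GRMZM2G071021) fell from 25.5 and 26.4 to 0.548 and 0.686 FPKM (-4.06 ± 0.18 in log2, limma adjusted p = 6.52e-05) and ALDH7 (GRMZM2G130440) rose from 171 and 146 to 425 and 527 FPKM (1.58 ± 0.19 in log2, limma adjusted p = 0.00135), with 5 of 8 not called. In the Mediator complex, which links transcription factors to RNA polymerase, 3 of 9 genes rose and 1 fell. With any library left out 1 of these calls remained, that of MED26.15 (GRMZM2G120971), which rose from 4.35 and 4.38 to 22.1 and 30.8 FPKM (2.34 ± 0.21 in log2, limma adjusted p = 0.000513). Splicing factors of the SR family gave 5 rising and 2 falling genes of 21, near the background share of rises, and 1 rise and no fall were called whichever library was left out. That was SCL25B (GRMZM5G867185), which rose from 59.1 and 59.5 to 131 and 116 FPKM (1.04 ± 0.15 in log2, limma adjusted p = 0.00244), and its relative SCL25A (GRMZM2G426229), at 18.1 and 17.9 FPKM when watered and 19.7 and 21.9 FPKM under drought, was not called. Of 10 NF-Y factors 4 fell, among them NF-YA14 (GRMZM2G038303), from 15.4 and 16.2 to 6.14 and 5.97 FPKM (-1.25 ± 0.16 in log2, limma adjusted p = 0.00187), and 1 rose, 2 and none of them called whichever library was left out. The chlorophyll synthesis gene oy1 (GRMZM2G419806), a subunit of magnesium chelatase, fell from 18.9 and 23.7 to 3.03 and 2.2 FPKM (-2.63 ± 0.21 in log2, limma adjusted p = 0.000379), along with most green tissue markers. The part of green tissue in this fall was not tested. The list that holds oy1, of isoprenoid pigments and tocopherol, was split, with 3 rising and 3 falling genes of 9. Its median log2 change was 0.09, or -0.21 without the gene at 0.

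Among tested IDs, 1045 shared all 4 values with at least 1 other, in 505 sets, so that some genes count more than once. With 1 ID per set 5474 rose and 6870 fell of 23230. Examples in the lists were the pairs named SCL30 and Med12b and 2 of the IDs named dcl4.

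Of the genes in the table, 671 had 2 libraries at 0, 159 had 1, and none had 3 or 4. Among those with 2, 641 had both zeros in the same condition. None of the 641 had a mean under 1 FPKM.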
